A study of Mus musculus with 7 samples.

Results

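Same-strand read pairs that lay exactly 60 bp apart on mitochondrial DNA (mtDNA) were examined in 7 mouse libraries. The members were chosen by the values in the deposited lists: both reads of the pair on the same strand, and an insert size of 60 bp. Where a library listed a pair several times with the same positions and strands, 1 was kept. This left 1248 unique pairs of the 2014 unique pairs listed in all, 928 from the Deletor library and 320 from the 6 heart libraries. That both reads share a strand and that the size is 60 bp are therefore no result, and the results below concern which strand the pairs lay on, where they lay along the mtDNA, and which places recurred between animals.

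The study asked whether mtDNA stays intact in hearts that cannot fuse the outer mitochondrial membrane. DNA from isolated heart mitochondria was sequenced as paired reads from 3 littermate controls (Mfn1 loxP/loxP, Mfn2 loxP/loxP, without Cre) and 3 *dMfn* KO animals (Mfn1 -/-, Mfn2 -/-, with Cre), all C57BL/6N and 5 weeks old. MFN1 and MFN2, the mitofusins, are the GTPases that join the outer membranes of neighbouring mitochondria. Cre was driven by the *Ckmm* promoter, which is active in heart and skeletal muscle cells, so other cells of the heart keep both genes. The 7th library was made from total DNA of 1 Deletor mouse, the positive control, which the labels give as C57BL/6J, skeletal muscle, 20 weeks old, with an in-frame duplication of residues 353 to 365 of the mtDNA helicase Twinkle. The paper names another age and another Twinkle change for this animal. Tissue, DNA preparation, strain and age all differ between this single library and the hearts, and their effects cannot be told apart from that of the genotype.

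The mouse mtDNA is a small circle that carries 13 protein genes, 2 rRNA genes and 22 tRNA genes, nearly all of them packed end to end. The 1 long stretch without genes is the control region, where transcription of both strands starts and where replication of the heavy strand begins. In the control region an additional short strand, the 7S DNA, is often left in place and forms the displacement loop. In a paired-end library from intact DNA the reads of a fragment lie on opposite strands and face each other, so a pair with both reads on 1 strand is not the expected arrangement. Here the strand of the reference sequence is called forward, and its complement reverse.

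The lists held 84 to 216 pairs per heart library and 1284 in the Deletor library, and no list gives the number of all mapped reads. The values are therefore counts of listed pairs or shares of them, never rates per mtDNA molecule. All 7 libraries were read on the same lane. The 95% intervals were computed by Wilson's method, and they allow for counting error alone. No base sequence of these places is shown, since the reference genome was not used here.

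Few same-strand pairs had a size close to, but not equal to, the 60 bp by which the members were chosen. Among unique same-strand pairs of 55 to 65 bp, 1248 had a size of 60 bp and 6 had any other size, with 2 at 59 bp and 1 at 61 bp. In 1248 of 1248 pairs read 2 lay downstream of read 1 on their strand. The choice by size also sets the distance between the mapped positions, which was exactly 60 bases in 1244 pairs and 59 or 61 bases in 4 pairs. Some further pairs lay 60 bases apart on the circle but not on the linear reference. The reference ran past 1 circle, with a highest mapped position of 16879, so the first bases of the mtDNA were also present at its end. They were 21 unique same-strand pairs with sizes 60 bp short of, or 60 bp past, the length of the mtDNA. Their spacing of 60 bases on the circle follows from this choice of sizes. The direction does not, and read 2 lay downstream of read 1 in 21 of 21. Of these, 17 came from the Deletor library, 2 from control 1 and 2 from *dMfn* KO 1. The heart pairs among them lay in the rRNA genes, in the stretch that the reference holds at both ends. None of these further pairs was counted as a member.

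The pairs lay mostly on the reverse strand, and in every library. The controls held 41, 63 and 44 reverse pairs against 15, 26 and 14 forward pairs. The *dMfn* KO animals held 38, 38 and 22 reverse pairs against 8, 11 and 0 forward pairs. The Deletor library held 514 reverse and 414 forward pairs. The excess was thus strongest in *dMfn* KO 3, which had no forward pair among 22, and weakest in the Deletor mouse. A count of 0, taken to allow up to 3 pairs, limits the forward share of *dMfn* KO 3 to 13.6%, and its Wilson interval reaches 14.9%.

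**Figure D1:**
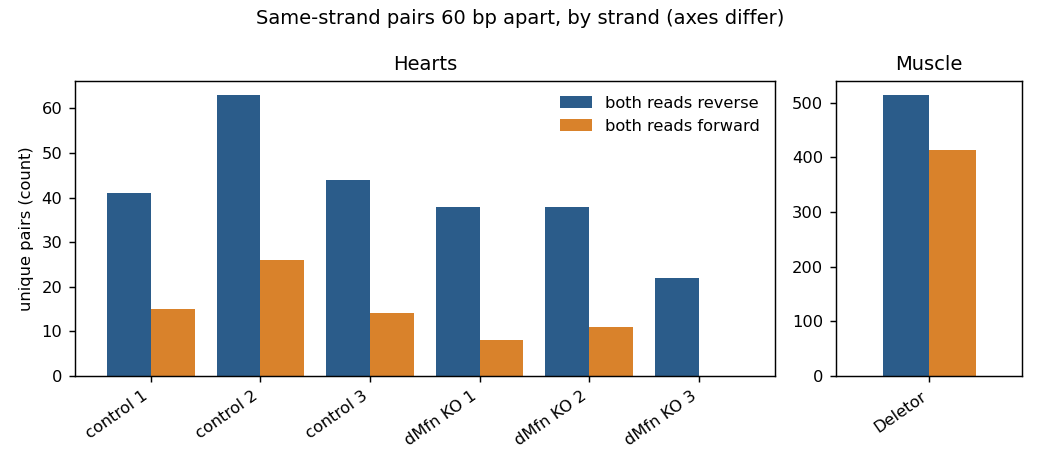
Number of unique same-strand pairs 60 bp apart in each library, split into pairs with both reads on the reverse strand (blue) and both on the forward strand (orange), with a separate axis for the Deletor library. Reverse pairs outnumber forward pairs in each of the 7 libraries, from 514 against 414 in the Deletor mouse to 22 against 0 in *dMfn* KO 3.

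As a share, reverse pairs were 73.2% in control 1 (95% interval 60.4 to 83.0), 70.8% in control 2 (60.6 to 79.2) and 75.9% in control 3 (63.5 to 85.0). They were 82.6% in *dMfn* KO 1 (69.3 to 90.9), 77.6% in *dMfn* KO 2 (64.1 to 87.0) and 100% in *dMfn* KO 3 (85.1 to 100). The Deletor share of 55.4% (52.2 to 58.6) lay below all 6 hearts, and its interval did not reach that of any of them. This is a difference between libraries, with 1 Deletor animal and no test of the genotype.

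Other short same-strand pairs lay less often on the reverse strand. Same-strand pairs of at most 600 bp with any size but 60 bp numbered 10 to 24 in single hearts and 35 in the Deletor library. Of these, 10% to 66.7% were on the reverse strand in the hearts and 31.4% in the Deletor library. The mean over the 6 hearts was 80.0 ± 10.6% (SD, n = 6) for the 60-bp pairs and 38.6 ± 19.2% (SD, n = 6) for the other same-strand pairs. The difference of 41.4 ± 19.8 percentage points was positive in 6 of 6 hearts (exact sign-flip permutation test, two-sided, p = 0.0312, the smallest that 6 hearts allow, adjusted p = 0.0391 over 5 comparisons chosen after the data were seen). It ran the same way in the Deletor library, by 24.0 percentage points.

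**Figure D2:**
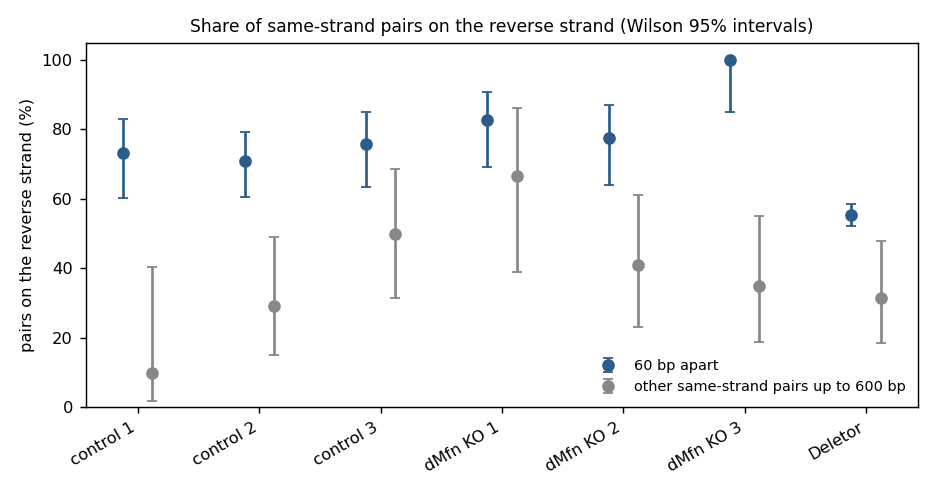
Share of unique same-strand pairs on the reverse strand in each library, for pairs 60 bp apart (blue) and for all other same-strand pairs of at most 600 bp (grey), with Wilson 95% intervals as bars. The blue point lies above the grey point in each library, and the smallest gap among the hearts is in *dMfn* KO 1 (82.6% against 66.7%).

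The controls and the *dMfn* KO animals were then compared. The number of unique 60-bp pairs was 56, 89 and 58 in control animals and 46, 49 and 22 in *dMfn* KO animals, without overlap. The means were 67.7 ± 18.5 pairs and 39 ± 14.8 pairs (SD, n = 3 each, exact permutation test, two-sided, p = 0.1, adjusted p = 0.2). Without control 2 the difference (*dMfn* KO minus control) moved from -28.7 to -18 pairs. Divided by all unique listed pairs of the library, the number had the opposite direction, 2.55 percentage points higher in *dMfn* KO animals (exact permutation test, p = 0.7). Divided by the same-strand pairs of at most 600 bp, it kept its direction, at -12.4 percentage points (exact permutation test, p = 0.3). Forward pairs made up 26.8%, 29.2% and 24.1% of the 60-bp pairs in control animals and 17.4%, 22.4% and 0% in *dMfn* KO animals, so the groups did not overlap. The mean forward share was 26.7 ± 2.54% (SD, n = 3) in control animals and 13.3 ± 11.8% (SD, n = 3) in *dMfn* KO animals (exact permutation test, two-sided, p = 0.1, adjusted p = 0.2 over 6 comparisons). A p of 0.1 is the smallest that 3 animals against 3 allow, so no comparison of this design can pass a threshold of 0.05. Without *dMfn* KO 3 the difference (*dMfn* KO minus control) moved from -13.4 to -6.79 percentage points. Both strands had fewer pairs in *dMfn* KO animals: 18.3 ± 6.66 forward pairs in control animals and 6.33 ± 5.69 in *dMfn* KO animals, and 49.3 ± 11.9 against 32.7 ± 9.24 reverse pairs (SD, n = 3 each, exact permutation test, p = 0.1 for each, unadjusted). The total number of unique listed pairs was also lower in each *dMfn* KO library than in each control.

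Places along the mtDNA were taken from the lowest mapped position of a pair. Only 6 members, all from the Deletor library, had a position past the end of 1 circle, and these positions were put at its start. Gene names come from the RefSeq annotation of the GRCm38.p6 assembly. The authors mapped to a different mtDNA record, so a place within a few bases of the end of a gene is uncertain. Moving all gene ends by 10 bp either way changed no share of the control region, rRNA genes or major arc in the comparison of the groups. Where genes overlap, which concerned 9 pairs, the gene that starts first was used.

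The control region was the densest part of the mtDNA in the hearts as well as in the Deletor mouse. It held 6, 11 and 6 pairs in control animals, 12, 12 and 2 in *dMfn* KO animals and 93 in the Deletor library. The hearts summed to 55.9 pairs per kb there, against 19.6 per kb over the whole mtDNA. The Deletor library had 106 pairs per kb there, against 56.9 per kb overall. The control region takes up 5.38% of the mtDNA and held 15.3% (95% interval 11.8 to 19.7) of the heart pairs and 10.02% (8.25 to 12.1) of the Deletor pairs.

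Next in density came genes of the respiratory chain and ATP synthase. *ATP8*, a short gene for a subunit of the membrane part of ATP synthase, held 53.9 pairs per kb in the hearts and 98.0 per kb in the Deletor mouse, and ranked second in both. *COX2*, for the cytochrome c oxidase subunit that takes electrons from cytochrome c, held 43.9 and 84.8 per kb. *ND2* and *ND4* encode subunits of complex I in the membrane arm. *ND2* had 35.6 pairs per kb in the hearts and 63.6 in the Deletor mouse, and *ND4* 31.4 and 95.6. *CYTB*, the mtDNA-encoded subunit of complex III, held 28.0 per kb in the hearts, above their mean, but 44.6 per kb in the Deletor mouse, below its mean. Of the 4 densest parts, 3 were the same in the hearts and the Deletor library.

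The pairs were sparse in *COX1* and, in the hearts, in the rRNA genes. *mt-Rnr1*, the small rRNA of the mitochondrial ribosome, held 0, 2 and 0 pairs in control animals, 1, 1 and 0 in *dMfn* KO animals and 45 in the Deletor mouse. *mt-Rnr2*, the large rRNA, held 4, 3 and 6 pairs in control animals, 1, 0 and 0 in *dMfn* KO animals and 72 in the Deletor mouse. Per kb this was 4.19 for *mt-Rnr1* and 8.85 for *mt-Rnr2* in the hearts, the lowest of the 16 parts that are single genes or the control region. The value for *mt-Rnr1* leaves out the further pairs 60 bases apart on the circle, 2 in control 1 and 2 in *dMfn* KO 1. Its low density in the hearts thus comes in part from how members were chosen. In the Deletor library the densities of 47.1 and 45.5 per kb were nearer to the mean of 56.9. Up to 17 further Deletor pairs 60 bases apart on the circle may lie in *mt-Rnr1*, so whether it is below that mean is uncertain. *COX1*, for the catalytic subunit of cytochrome c oxidase, had 9.06 pairs per kb in the hearts and 31.7 in the Deletor mouse. The remaining protein genes had 10.1 (*ND4L*) to 20.9 (*ND1*) pairs per kb in the hearts, and 29.7 (*ND6*) to 74.7 (*ND3*) in the Deletor library.

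**Figure D3:**
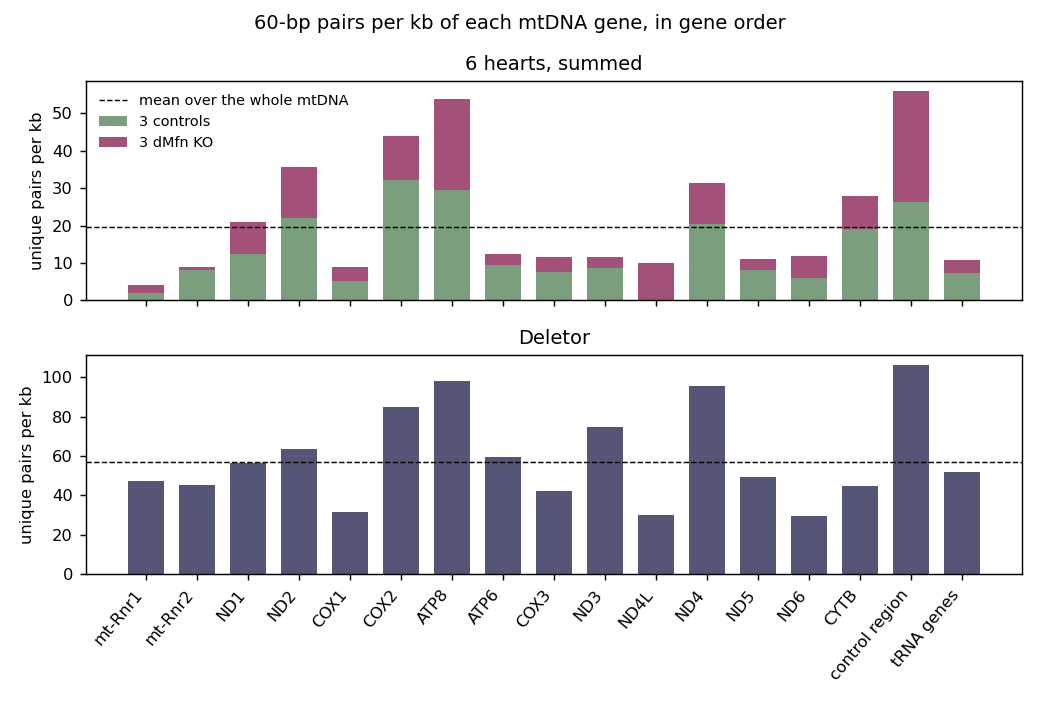
Unique same-strand pairs 60 bp apart per kb of each protein gene, rRNA gene and the control region, in their order along the mtDNA, with the tRNA genes pooled at the right, for the 6 hearts summed (top, controls green and *dMfn* KO purple, stacked) and for the Deletor library (bottom). Dashed lines give the mean over the whole mtDNA, and the control region has the tallest bar in both panels (55.9 and 106 pairs per kb).

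The 22 tRNA genes together held 16 pairs in the hearts and 77 in the Deletor mouse, or 10.7 and 51.7 per kb. *TrnG* and *TrnH*, for the glycine and histidine tRNAs, had the most with 13 pairs each over all 7 libraries. The short gaps between genes held 1 pair, from the Deletor library.

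In the hearts, other short pairs lay less often in the control region and more often in the rRNA genes. Here the other pairs had reads on the same strand or on opposite strands, unlike in the comparison of strands, and the mix varied between hearts. Pairs of at most 600 bp outside the class numbered 39 to 112 per heart, and 1.82% to 9.52% of them lay in the control region. For the 60-bp pairs the share was 10.7%, 12.4% and 10.3% in control animals and 26.1%, 24.5% and 9.09% in *dMfn* KO animals. The mean difference over the 6 hearts was 10.1 ± 6.08 percentage points, positive in 6 of 6 (exact sign-flip permutation test, two-sided, p = 0.0312, the smallest possible, adjusted p = 0.0391). In the Deletor library the difference had the opposite sign, at -2.48 percentage points, with 10.02% of the 60-bp pairs against 12.5% of 48 other short pairs. In the rRNA genes the heart shares were 4.92 ± 3.68% for the 60-bp pairs and 15.7 ± 6.37% for the other short pairs, lower in 6 of 6 hearts (exact sign-flip permutation test, p = 0.0312, adjusted p = 0.0391). The Deletor shares were 12.6% and 18.8%. The major arc, which runs from *TrnC* to *TrnP* and lies between the origins of the light and heavy strands, held 59.5 ± 9.14% of the 60-bp pairs and 57.8 ± 11.1% of the other short pairs in the hearts (SD, n = 6 each, exact sign-flip permutation test, p = 0.688, adjusted p = 0.688). The first of these shares is close to the 62.8% of the length that the arc takes up.

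Between the groups of hearts no share of these regions passed the threshold, which this design cannot reach. The control region held 11.1 ± 1.07% of the pairs in control animals and 19.9 ± 9.39% in *dMfn* KO animals (SD, n = 3 each, exact permutation test, two-sided, p = 0.4, adjusted p = 0.6). Here *dMfn* KO 1 and 2 lay above all controls and *dMfn* KO 3 below them, and without *dMfn* KO 3 the difference rose from 8.75 to 14.1 percentage points. The rRNA genes held 7.14%, 5.62% and 10.3% in control animals and 4.35%, 2.04% and 0% in *dMfn* KO animals. These groups did not overlap, with means of 7.70 ± 2.41% and 2.13 ± 2.18% (SD, n = 3 each, exact permutation test, p = 0.1, adjusted p = 0.2). These shares rest on 15 pairs in control animals and 3 in *dMfn* KO animals. With the further pairs 60 bases apart on the circle included, the groups overlapped. The difference (*dMfn* KO minus control) was then -5.31 in place of -5.57 percentage points (exact permutation test, p = 0.2). The major arc held 61.2 ± 10.8% in control animals and 57.9 ± 9.10% in *dMfn* KO animals (exact permutation test, p = 0.6, adjusted p = 0.6). Its difference of -3.38 percentage points changed sign without control 2, to 2.52.

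Within the control region the pairs gathered in 3 bands. The first band lay in the first 200 bases after *TrnP*, at the end of the region where the 7S DNA strand stops. It held 2, 7 and 4 pairs in control animals, 4, 7 and 2 in *dMfn* KO animals and 58 in the Deletor library. Of the 26 heart pairs in this band, 25 were on the reverse strand. In the Deletor library 37 were reverse and 21 forward. All 6 hearts had pairs there.

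From 200 bp to just below 300 bp the hearts had no pair and the Deletor library had 1. The second band, from 300 bp to just below 600 bp, held 9 heart pairs from 4 animals, all of them reverse, and 10 reverse and 2 forward Deletor pairs. The third band, from 600 bp to the end of the control region, held 6 reverse and 8 forward heart pairs, from 5 animals, and 12 reverse and 10 forward Deletor pairs. It was the only band of the 3 in which the hearts had more forward than reverse pairs. The bands were drawn after the places were seen, and no test was made of them.

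**Figure D4:**
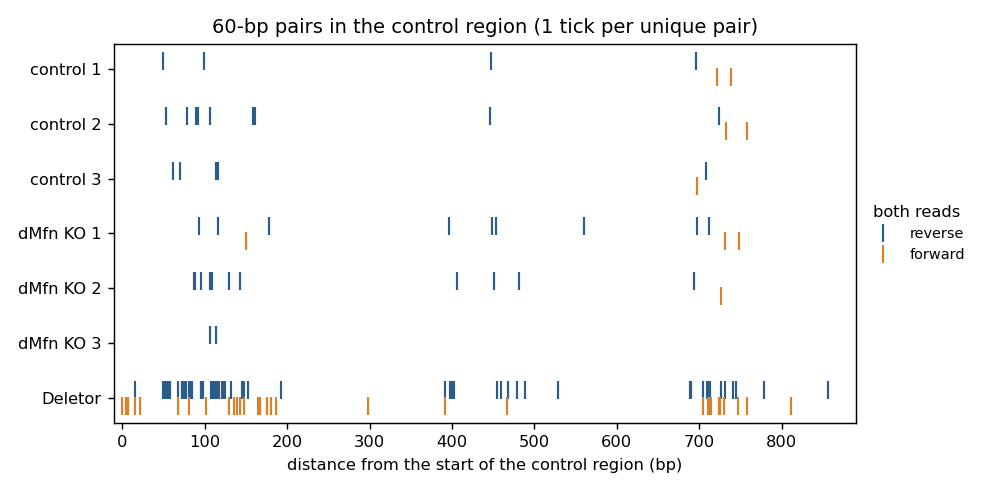
Places of the unique 60-bp pairs in the control region, as the distance in bp of the lowest mapped position from the end of *TrnP*, with 1 row per library and 1 tick per pair (blue for reverse, orange for forward). The ticks gather in 3 bands in control 1, control 2, *dMfn* KO 1 and 2 and the Deletor library, with 25 of 26 heart ticks reverse in the first 200 bp and 8 of 14 forward in the last band.

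Along the whole mtDNA the hearts and the Deletor mouse shared most crowded stretches. Of the 16 full windows of 1 kb, the 5 with the most pairs were the same 5 in the hearts and in the Deletor library. The rest of the control region, from position 16001 to the end, is a window of under 300 bp and held 46.8 heart pairs and 73.6 Deletor pairs per kb. Ranked per kb with this short window, 4 of the 5 densest windows were the same. The 5 full windows with the most pairs held 200 of the 320 heart pairs (62.5%) and 449 of the 928 Deletor pairs (48.4%). Positions 15001 to 16000, from *CYTB* into the control region, came first, with 7, 20 and 6 pairs in control animals, 11, 12 and 2 in *dMfn* KO animals and 113 in the Deletor mouse. Positions 7001 to 8000, with *COX2* and *ATP8*, held 43 heart pairs and 89 Deletor pairs. Positions 11001 to 12000, with the end of *ND4* and the start of *ND5*, held 42 and 83. Positions 4001 to 5000, mostly *ND2*, held 37 and 69, and positions 10001 to 11000, within *ND4L* and *ND4*, held 20 and 95.

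The windows with the fewest heart pairs were 5001 to 6000, which takes in the cluster of tRNA genes around the origin of light-strand replication and the start of *COX1*, with 2 heart pairs and 20 Deletor pairs (the fewest of a full window there too), and 12001 to 13000 in *ND5*, with 2 heart and 33 Deletor pairs. Over the 16 full windows, Pearson's r between the summed hearts and the Deletor library was 0.85 (Spearman's rho 0.82), and between the summed controls and the summed *dMfn* KO animals 0.93 (rho 0.89). The windows share the mapping reference, the lane and the base composition of the mtDNA, and windows are not replicates, so these are descriptions.

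At a finer scale of 100 bp, several stretches were crowded on 1 strand. Positions 15501 to 15600 in the control region held 21 heart pairs, 20 of them reverse, and 22 reverse and 12 forward Deletor pairs. Positions 4701 to 4800 in *ND2* held 6, 2 and 4 pairs in control animals and 3, 1 and 2 in *dMfn* KO animals, all 18 of them reverse. The Deletor library had 9 reverse and 3 forward pairs there. Positions 11201 to 11400 in *ND4* held 21 heart pairs, all reverse, and 13 reverse and 4 forward Deletor pairs. In the second part of that stretch, from 11301, each of the 6 hearts held 2 pairs. Positions 15201 to 15300, at the end of *CYTB*, held 4, 8 and 0 pairs in control animals and 2, 1 and 0 in *dMfn* KO animals, 14 of these 15 reverse. The crowded stretches were thus not carried by 1 animal, although control 2 had 8 of the 15 pairs in the last one. Positions 701 to 800 in *mt-Rnr1* held 15 reverse pairs and 1 forward pair in the Deletor library, where the hearts had 3 pairs in all. The 100-bp windows were chosen after the values were seen.

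The strand also varied from gene to gene. Reverse pairs outnumbered forward pairs in 13 of the 16 parts in the hearts and in 10 of 16 in the Deletor library. *ATP8* was at 1 end of the range, with 11 of 11 heart pairs and 15 of 20 Deletor pairs (75%, 95% interval 53.1 to 88.8) on the reverse strand. *ND6*, the only protein gene of mtDNA that is encoded on the opposite strand to the other 12, was at the other end for the Deletor library, with 2 reverse and 13 forward pairs (13.3% reverse, 3.74 to 37.9), and had 2 reverse and 4 forward pairs in the hearts. *ND1* (21 reverse and 33 forward Deletor pairs, 9 and 11 in the hearts) and *ND3* (11 and 15, 1 and 3 in the hearts) also had more forward pairs in both. *ND5* had 45 of each strand in the Deletor library and 15 reverse and 5 forward pairs in the hearts. *ND4L*, like *ATP8*, had only reverse pairs in the hearts, 3 of 3, but 4 reverse and 5 forward pairs in the Deletor library.

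Exact places recurred between libraries. A place is a position on the circle with its strand. The 1248 pairs lay at 1201 different places, of which 1159 were found in 1 library, 37 in 2 and 5 in 3, and none in more than 3. Of the 42 recurring places, 36 were on the reverse strand and 6 on the forward strand. Each recurring place includes a heart library, and 76.9% of all heart pairs were reverse. Whether recurring places differ in strand from the other heart places was not tested. Between the hearts and the Deletor library 37 places were shared, which is 11.9% of the 310 heart places and 3.99% of the 928 Deletor places. The Deletor places take up 2.85% of the 32598 places that all positions on both strands offer.

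The 5 places found in 3 libraries were all reverse, as were most heart pairs. Position 4729 in *ND2* was found in control 1, *dMfn* KO 3 and the Deletor mouse. Position 11322 in *ND4* was found in control 3, *dMfn* KO 1 and *dMfn* KO 2. The other three lay within 10 bases of each other in the control region: 15530 in control 2, *dMfn* KO 2 and *dMfn* KO 3, 15537 in control 3, *dMfn* KO 3 and the Deletor mouse, and 15539 in control 3, *dMfn* KO 1 and the Deletor mouse. Among the hearts alone, 8 places were found in 2 or more animals. Over the 15 comparisons of 2 hearts there were 12 shared places, with 0 among the controls and 3 among the *dMfn* KO animals.

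Near matches were far more common than exact ones, and in the hearts they were more often on the same strand than on the other. Of the heart places, 80.6% (250 of 310) had a Deletor place of the same strand within 10 bp. Of all positions on the mtDNA, 33.4% of the reverse strand and 31.6% of the forward strand lie that near to a Deletor place. In single libraries the share was 87.5%, 82.0% and 82.8% in control animals and 80.4%, 79.6% and 63.6% in *dMfn* KO animals. Within 10 bp of a Deletor place of the other strand lay 50%, 46.1% and 53.4% of the control places and 43.5%, 49.0% and 59.1% of the *dMfn* KO places. The mean over the 6 hearts was 79.3 ± 8.16% for the same strand and 50.2 ± 5.54% for the other strand (SD, n = 6 each). The difference of 29.1 ± 12.5 percentage points was positive in 6 of 6 hearts (exact sign-flip permutation test, two-sided, p = 0.0312, the smallest possible, adjusted p = 0.0391). It was smallest in *dMfn* KO 3, the library with the fewest pairs, and with a distance of 20 bp in place of 10 bp it came to 13.0 percentage points and no longer passed the threshold (exact sign-flip permutation test, p = 0.156). Whether reads passed between the libraries on their shared lane was not tested.

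**Figure D5:**
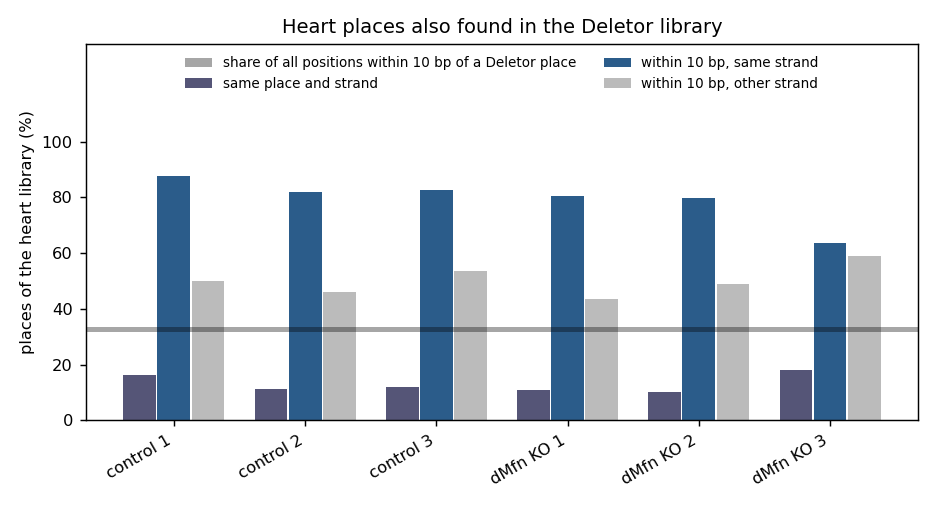
Share of the places of each heart library that are also in the Deletor library at the identical position and strand (purple), within 10 bp on the same strand (blue) or within 10 bp on the other strand (light grey). The horizontal grey band marks the share of all mtDNA positions within 10 bp of a Deletor place (31.6% to 33.4%), and the blue bars lie at 63.6% to 87.5%, above the grey bar of the same heart in each case.

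Some pairs were listed more than once with the same positions and strands. In the Deletor library 92 of the 928 unique pairs (9.91%) had 2 to 4 copies, giving 1.12 listed copies per unique pair. The other pairs of that library gave 1.01 copies per unique pair (245 listed, 243 unique). Both pairs with 4 copies were in complex I genes, a forward pair at position 9715 in *ND3* and a reverse pair at 11305 in *ND4*. In the hearts 8 of the 320 unique pairs had copies, all of them reverse, where 76.9% of all heart pairs were reverse. In the Deletor library, 55 of the 92 pairs with copies were reverse and 37 forward, where 55.4% of all its pairs were reverse. Of the 100 sets of copies in all 7 libraries, 0 had 2 copies on the same tile of the flow cell. The mean number of listed copies was 1.02 ± 0.012 in control animals and 1.03 ± 0.032 in *dMfn* KO animals (SD, n = 3 each, exact permutation test, two-sided, p = 0.6, adjusted p = 0.6).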

How the data were processed

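DNA of isolated heart mitochondria (3 control, 3 *dMfn* KO) and total DNA of 1 Deletor mouse was sequenced as paired reads. Per the labels, reads were removed with Bowtie2 2.1.0 when they mapped to the nuclear genome (NCBIM37) and the rest mapped with BWA 0.6.2-r126. The authors mapped to a published mtDNA record, trimmed and remapped failed reads, and kept mapped pairs not marked as proper. The deposited lists hold, for each read, a flag, 2 positions and an insert size in bp, with no depth or sequence. These deposited values were used as they are.

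Both reads were joined by name, identical pairs were counted once, and positions past the mtDNA length were put at the start. Groups were compared with exact two-sided permutation tests over 20 divisions of 6 animals, and classes of pairs within hearts with exact sign-flip tests, with Benjamini-Hochberg adjustment over 6 and 5 comparisons. The members, lists and regions were chosen with earlier results of these data known. The genes and the control region were all described, with the 5 fullest 1-kb windows and the 5 places found in most libraries named by rule. Gene ends came from RefSeq (GRCm38.p6), matching 37 genes. The functions were tested on simulated data of 280 pairs and recovered 4 of 4 counts. Precision is set by 22 to 89 pairs per heart and 928 in the Deletor library. Alternatives varied copies, size, placement, replicate block and animals. Scripts ran under Python 3.11.15 with scipy 1.17.1 for the exact tests, numpy 2.4.6 and pandas 2.3.3 for counts, and matplotlib 3.10.9 for figures.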

Additional observations from a re-analysis of the deposited data

How the results depend on the processing

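No alternative could give a p below 0.1 in the comparisons of control and *dMfn* KO hearts, and none did. Some alternatives could not change a difference either. A block for the replicate number leaves it the same, and the members past the end of the mtDNA were all from the Deletor library. With these included, 70 of 73 alternative values over the 6 comparisons kept their direction. The exceptions were the number of pairs divided by all unique pairs of the library, where the difference was 2.55 percentage points in place of -28.7 pairs (exact permutation test, p = 0.7), and the major arc without control 2 (2.52 percentage points) or without *dMfn* KO 2 (0.036 percentage points). With 1 animal left out, the difference (*dMfn* KO minus control) ran from -34.5 to -18 pairs for the number, from -18.0 to -6.79 percentage points for the forward share, from 5.65 to 14.1 for the control region, from -6.68 to -4.25 for the rRNA genes and from -8.54 to 2.52 for the major arc, and from 0.00055 to 0.031 copies per pair.

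With a block for the replicate number, as in a paired comparison, the differences are by construction those of the unpaired comparison, -28.7 pairs, -13.4 percentage points for the forward share, 8.75 for the control region, -5.57 for the rRNA genes, -3.38 for the major arc and 0.014 copies, with exact sign-flip p of 0.25 to 0.75, where 0.25 is the smallest possible. The block could change no call, since no comparison passed the threshold without it and none could pass with it. Animals with the same number had correlations of -0.0803, 0.274 and 0.641 in their deviations over 17 windows. Of the 6 animals, 2 correlated best with their own number, control 3 and *dMfn* KO 3. With so few animals and pairs, these values cannot tell whether the numbers pair the animals.

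In the comparisons of 60-bp pairs with other short pairs, 5 hearts cannot give a p below 0.0625, so with 1 heart left out no comparison could pass the threshold. The differences then ran from 36.7 to 46.5 percentage points for the reverse strand, from 8.14 to 11.3 for the control region, from -11.8 to -8.77 for the rRNA genes, from -1.33 (without control 2) to 3.84 for the major arc and from 27.5 to 34.1 for places near a Deletor place. Within 20 bp the last difference was 13.0 percentage points (exact sign-flip test, p = 0.156). Of the 1201 places, 605 had a place of the same strand within 10 bp in another library, against 42 found at the identical position. Depth per mtDNA molecule is unknown, which limits all counts.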
